A study of Homo sapiens with 4 samples.

Results

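SOX transcription factors were followed in the human medulloblastoma line Daoy, in samples labelled wild type and EED-knockout. The set held 10 genes of the 58174 in the files: SOX2 and SOX21 of group B, SOX4 and SOX11 of group C, SOX8, SOX9 and SOX10 of group E, and SOX7, SOX17 and SOX18 of group F. They were taken by gene symbol from a list. The rule itself used no measured value, but the list was chosen with earlier results of these data known. All 10 symbols were found, each as 1 gene. RNA-seq libraries came from 2 wild type and 2 EED-knockout samples. No treatment, time, clone or position of the EED lesion is given in the labels, nor whether libraries of a genotype were separate cultures, so p-values reflect the spread among these 4 libraries, possibly a technical one. The question set by the design was how SOX messenger levels compare between cells labelled EED-knockout and wild type cells.

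SOX proteins bind the minor groove of DNA through an HMG box and act with partner factors, and the groups are defined by the similarity of that box. SOX2 maintains neural progenitors and pluripotent cells, and SOX21 counteracts it during neuronal differentiation. SOX4 and SOX11 act in differentiating neurons and are abundant in many tumors, the group E factors specify cartilage, glia and neural crest, and the group F factors act in blood vessels and endoderm. EED belongs to the core of the Polycomb complex PRC2, whose mark H3K27me3 is linked to silencing, often at CpG-rich promoters of developmental factors that a cell does not use.

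Both group B genes have a RefSeq promoter entry, and they are shown because they belong to the same group but differ in level: SOX2 was well expressed in every library and SOX21 was scarce. The stretches run 5′ to 3′ up to the RefSeq start on GRCh38.p14, without bases of the GENCODE transcript, and CG dinucleotides are in capitals. SOX2 is shown as chr3:181711675-181711923 on the plus strand (249 bases) and SOX21 as chr13:94712546-94712795 on the minus strand (250 bases).
SOX2: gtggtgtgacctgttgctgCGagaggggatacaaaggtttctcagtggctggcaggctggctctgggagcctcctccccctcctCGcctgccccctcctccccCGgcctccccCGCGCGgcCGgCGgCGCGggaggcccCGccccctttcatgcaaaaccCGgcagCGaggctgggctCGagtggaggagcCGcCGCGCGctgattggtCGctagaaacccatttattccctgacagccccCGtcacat
SOX21: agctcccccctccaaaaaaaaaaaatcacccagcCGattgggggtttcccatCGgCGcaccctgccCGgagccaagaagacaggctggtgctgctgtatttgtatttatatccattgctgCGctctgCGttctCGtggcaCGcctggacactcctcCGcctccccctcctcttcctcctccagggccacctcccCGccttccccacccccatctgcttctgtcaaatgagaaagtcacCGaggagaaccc
The SOX2 stretch holds 20 CG dinucleotides and the SOX21 stretch 11. The whole 300-base window includes the first bases of the RefSeq transcript. In it SOX2 had 20 CG dinucleotides, SOX21 15 and SOX4 8, against a median of 14 over 35116 RefSeq promoters. At least as many were found in 41.2% of those promoters for SOX2, 48.9% for SOX21 and 60.7% for SOX4. The SOX-type motif ACAAAG, searched on both strands, occurred in the SOX2 window, as in 16.1% of all promoters, and the motif AACAAT, found in 10.1% of promoters, occurred in none of the 3. The SOX4 window lies inside the longer GENCODE transcript and is not shown. The SOX21 window lies wholly upstream of its GENCODE transcript, which starts at 94712399. The 3 windows thus lie at different places relative to the GENCODE transcripts. The other members are SOX7, SOX8, SOX9, SOX10, SOX11, SOX17 and SOX18.

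The libraries held between 17836112 and 19106382 estimated counts, and the detection floor of 3 counts equalled 0.158 to 0.166 CPM, the unit of counts after scaling by library total and TMM factor. EED (ENSG00000074266, chromosome 11, 86244544 to 86278813, GRCh38) had 34.5 and 27.6 CPM in wild type against 17.9 and 26.2 CPM in knockout libraries, both knockout values below both wild type values, with no call by edgeR (quasi-likelihood test, log2 fold change -0.49, 95% interval -1.12 to 0.13, adjusted p = 0.878). A lesion that stops the protein need not lower the messenger, so this value does not settle the labels. The knockout libraries differed from each other by a biological coefficient of variation of 0.332, and the wild type libraries by 0.205. Pairs of a wild type and a knockout library lay at 0.226 to 0.369. Of these pairs only wild type 1 with knockout 1 differed more than the knockout libraries did from each other, so the libraries did not separate by genotype on this measure. Of the medulloblastoma and granule lineage markers, ZIC1, ZIC2, OTX2, GLI2 and NES were present in all libraries. The granule progenitor factor ATOH1 had 0 counts in each. NEUROD1, with 5 and 4 counts in wild type against 3 and 0 in knockout libraries, was scarce and not tested. The same held for BARHL1, with 8 and 1 counts against 7 and 5. Across all 18349 genes tested, edgeR called 0% higher and 0% lower at an adjusted p of 0.05, with 1082 genes at an unadjusted p under 0.05, while DESeq2 called 0.142% higher and 0.229% lower.

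No SOX gene passed the test in either tool. Compared per length, in TPM (abundance scaled by transcript length and library), 4 members carried nearly all SOX messenger of the set: SOX9 with a mean of 17.3 TPM over the 4 libraries, SOX11 with 14.0, SOX4 with 13.2 and SOX2 with 9.27. The other members stood far lower, at 1.23 TPM for SOX7, 0.926 for SOX17, 0.750 for SOX21, 0.605 for SOX18 and 0.118 for SOX8, while SOX10 was listed at 0. SOX9 lay above 63.8% of protein-coding genes and SOX18 above 27.7%. The first 4 summed to 55.9 and 51.4 TPM in wild type against 56.0 and 51.7 TPM in knockout libraries, so their joint level differed more between libraries of a genotype than between genotypes. Neighbours in this order overlapped between libraries: SOX9, SOX11 and SOX4 exchanged places, with SOX11 highest in wild type 1 and knockout 2 and SOX9 highest in wild type 2 and knockout 1. SOX2 lay below these 3 in every library. In bulk RNA, fewer cells carrying a messenger and less of it per cell cannot be told apart.

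**Figure D1:**
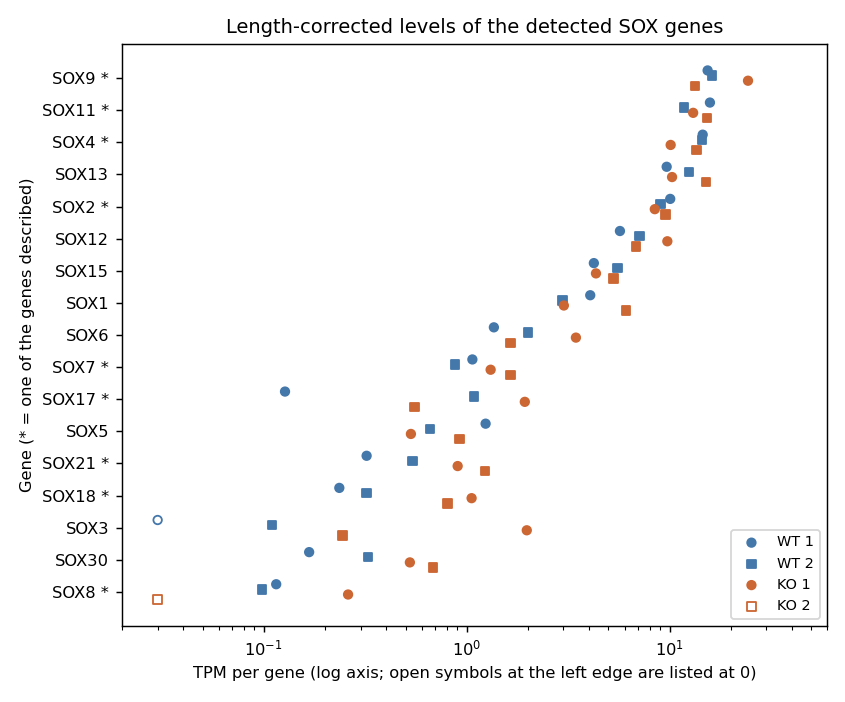
TPM per gene on a log axis for the SOX genes detected in at least 1 library, with circles for replicate 1 and squares for replicate 2, blue for wild type (WT) and orange for EED-knockout (KO); open symbols mark a value listed at 0. SOX9, SOX11, SOX4 and SOX2 lie near 10 TPM or above, and SOX7, SOX17, SOX21, SOX18 and SOX8 lie below 2 TPM in every library.

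Of the 8 members that passed the filter on low counts, SOX7, SOX18 and SOX21 had both knockout libraries above both wild type libraries and SOX4 had both below. Among all genes tested, 17.8% lay above in this way and 18% below. SOX2, SOX9, SOX11 and SOX17 overlapped between genotypes. The filter asked for about 10 counts (0.538 CPM) in at least 2 libraries, and SOX18 met it only through its knockout libraries, so it could enter the test only by being higher there. SOX8 and SOX10 did not pass it.

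**Figure D2:**
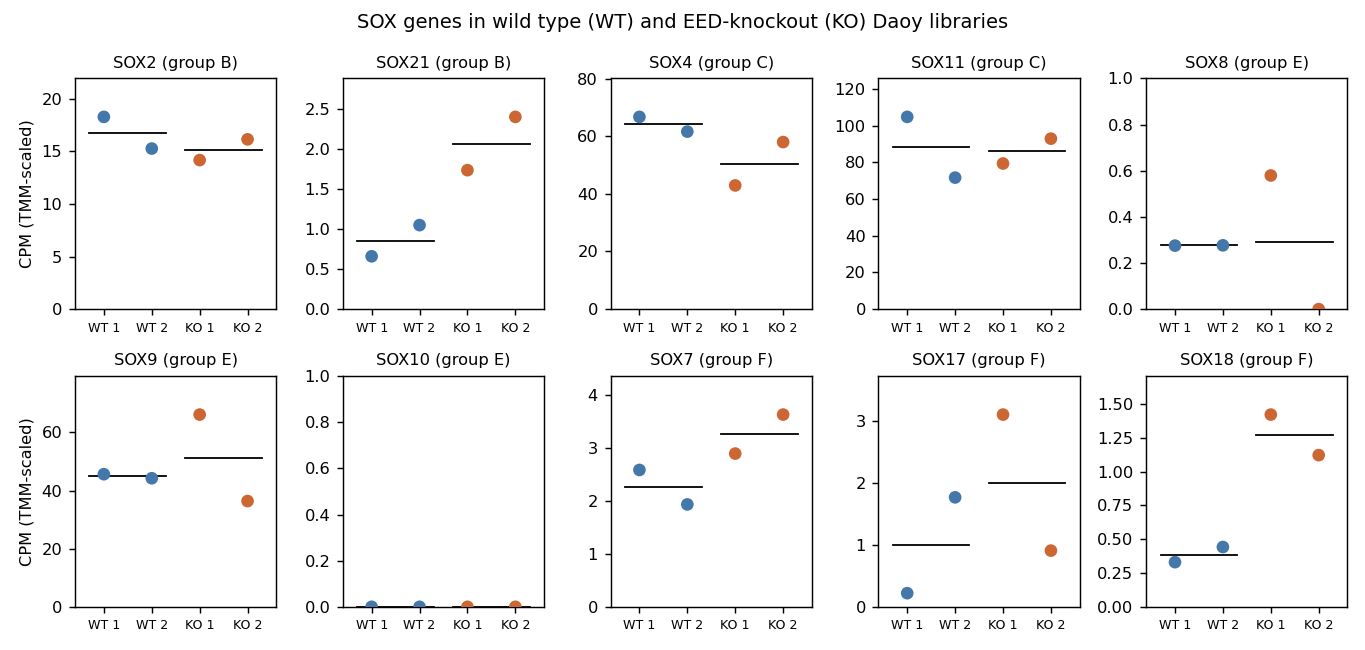
CPM (TMM-scaled) of each SOX gene in the 2 wild type (blue, WT) and 2 EED-knockout (orange, KO) libraries, with a horizontal line at each group mean; the vertical axis of every panel starts at 0 and has its own scale. SOX21, SOX7 and SOX18 are higher in both KO libraries, SOX4 is lower in both, and SOX9 is high in KO 1 alone.

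In group B, SOX2 (ENSG00000181449, chromosome 3, 181711924 to 181714436, a gene of 1 exon inside the noncoding gene SOX2-OT) had 18.3 and 15.3 CPM in wild type against 14.2 and 16.1 CPM in knockout libraries. The genotypes overlapped, and the fold change of 0.904 had a 95% interval of 0.603 to 1.35 (edgeR adjusted p = 0.961). SOX2-OT had 10, 13, 13 and 17 counts in wild type 1, wild type 2, knockout 1 and knockout 2. SOX21 (ENSG00000125285, chromosome 13, 94709622 to 94712399, 1 exon) had 12 and 19 counts in wild type against 33 and 45 counts in knockout libraries, or 0.660 and 1.05 against 1.74 and 2.41 CPM, with no overlap. Knockout 2 was the highest library and wild type 1 the lowest. The fitted fold change of SOX21 was 2.41 (95% interval 1.01 to 5.76, edgeR unadjusted p = 0.0485, adjusted p = 0.840), where 2.85% of all genes were higher and 3.05% lower at an unadjusted p under 0.05. DESeq2 gave SOX21 an unadjusted p of 0.108. SOX21-AS1, a noncoding gene at that locus, had 45 and 25 counts in wild type against 38 and 35 in knockout libraries, which overlapped. The TPM ratio of SOX2 to SOX21 was 31.4 and 16.7 in wild type against 9.37 and 7.74 in knockout libraries.

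In group C, SOX4 (ENSG00000124766, chromosome 6, 21592768 to 21598619, 1 exon) stood at 66.7 and 61.6 CPM in wild type against 42.9 and 58.0 CPM in knockout libraries. The group means were 64.2 ± 3.61 and 50.5 ± 10.6 CPM (SD, n = 2 each). Knockout 1 was the low library, and knockout 2 lay close under wild type 2. Its fold change was 0.786 with a 95% interval of 0.551 to 1.12, and edgeR made no call (adjusted p = 0.881). SOX4 lies on chromosome 6 among 136 expressed genes within 10 Mb whose median was also low in knockout 1, at -0.37 on the log2 scale relative to wild type, against -0.58 for SOX4 itself; in knockout 2 the values were -0.01 and -0.14. The part of these neighbours in the SOX4 value was not tested. SOX11 (ENSG00000176887, chromosome 2, 5692667 to 5701385, 1 exon) had the most counts of the set, at 105 and 71.7 CPM in wild type against 79.4 and 93.0 CPM in knockout libraries. Wild type 1 was the highest and wild type 2 the lowest library, so both knockout values lay between them. Its fold change was 0.976 (95% interval 0.661 to 1.44, edgeR adjusted p = 0.991). Its log2 fold change was 0.27 without wild type 1 and 0.08 without knockout 1, against -0.03 with all libraries. SOX11 overlaps AC010729.1 on the same strand, a gene with 8 to 19 counts, and the SOX11 estimates were not whole numbers. Among 14252 other expressed genes, ALG6, ZNF658 and ZNF33A had library profiles most like that of SOX11, at distances of 0.0295, 0.0329 and 0.0431 in centred log2 CPM over 4 libraries.

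In group E, SOX9 (ENSG00000125398, chromosome 17, 72121020 to 72126420, 3 exons), the cartilage and glial factor, had 45.6 and 44.2 CPM in wild type against 66.1 and 36.4 CPM in knockout libraries. The wild type libraries were nearly equal, knockout 1 was the highest library and knockout 2 the lowest. The knockout libraries thus differed 1.82-fold while the group means differed 1.14-fold, and edgeR made no call (log2 fold change 0.19, 95% interval -0.51 to 0.89, edgeR adjusted p = 0.955). Without knockout 1 the log2 fold change was -0.30, and without knockout 2 it was 0.55. The ratio of SOX9 to SOX4 in TPM was 1.06 and 1.12 in wild type, with 2.41 in knockout 1 and 0.979 in knockout 2. SOX9-AS1, which overlaps SOX9 on the opposite strand, had 11 and 14 counts in wild type against 12 and 15 in knockout libraries. The SOX9 estimates were whole numbers in every library, so kallisto divided no fragment between the 2 genes. Those of SOX9-AS1 lay up to 0.355 from a whole number, as happens where kallisto divides fragments between transcripts. Strandedness is not stated. SOX8 (ENSG00000005513, chromosome 16, 981808 to 986979) had 5 counts in each wild type library, 11 in knockout 1 and 0 in knockout 2, the last allowing up to 0.16 CPM. SOX10 (ENSG00000100146, chromosome 22, 37970686 to 37987422), the Schwann cell and melanocyte factor, was not detected, with 0 counts in every library and an upper limit of 0.166 CPM. POLR2F, which overlaps SOX10 on the opposite strand, had 914 to 1320 counts.

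In group F, SOX18 (ENSG00000203883, chromosome 20, 64047582 to 64049641, 2 exons), a vascular and lymphatic factor, had 6 and 8 counts in wild type against 27 and 21 counts in knockout libraries. In CPM these were 0.330 and 0.442 against 1.42 and 1.12, and the genotypes did not overlap. The exact Poisson 95% intervals of the counts were 2.2 to 13.1 and 3.5 to 15.8 in wild type, 17.8 to 39.3 in knockout 1 and 13.0 to 32.1 in knockout 2, which cover counting error only. The fitted fold change was 3.25 (95% interval 1.21 to 8.76), the largest of the 8 members tested, with an unadjusted p of 0.0259 and an adjusted p of 0.808 in edgeR, and an unadjusted p of 0.0905 in DESeq2. SOX7 (ENSG00000171056, chromosome 8, 10723768 to 10730512, 2 exons) had 2.59 and 1.94 CPM in wild type against 2.90 and 3.63 CPM in knockout libraries. Knockout 1 lay close above wild type 1, and its fold change was 1.44, with a 95% interval of 0.718 to 2.90 and no call (edgeR adjusted p = 0.907). SOX7 overlaps CTD-2135J3.4 on the same strand, a gene with 0 to 9 counts, and its estimates were not whole numbers, as happens where kallisto divides fragments between transcripts.

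SOX17 (ENSG00000164736, chromosome 8, 54457935 to 54460888, 2 exons), an endoderm and arterial factor, was the least even member, with 4 and 32 counts in wild type against 59 and 17 counts in knockout libraries. The wild type counts had Poisson 95% intervals of 1.1 to 10.2 and 21.9 to 45.2, so these libraries differed from each other by more than counting error. Knockout 1 was the highest library and wild type 1 the lowest. The fold change of 2.01 had a 95% interval of 0.419 to 9.68 (edgeR adjusted p = 0.924), and without knockout 1 the log2 fold change was -0.13. Summed over the group, SOX7, SOX17 and SOX18 had 1.43 and 2.28 TPM in wild type against 4.31 and 3.003 TPM in knockout libraries. The sum was lowest in wild type 1 and highest in knockout 1. SOX17, which overlapped between genotypes, supplied 0.127 and 1.09 TPM of it in wild type against 1.93 and 0.554 TPM in knockout libraries. How often sums of other gene sets lie so was not computed.

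**Figure D3:**
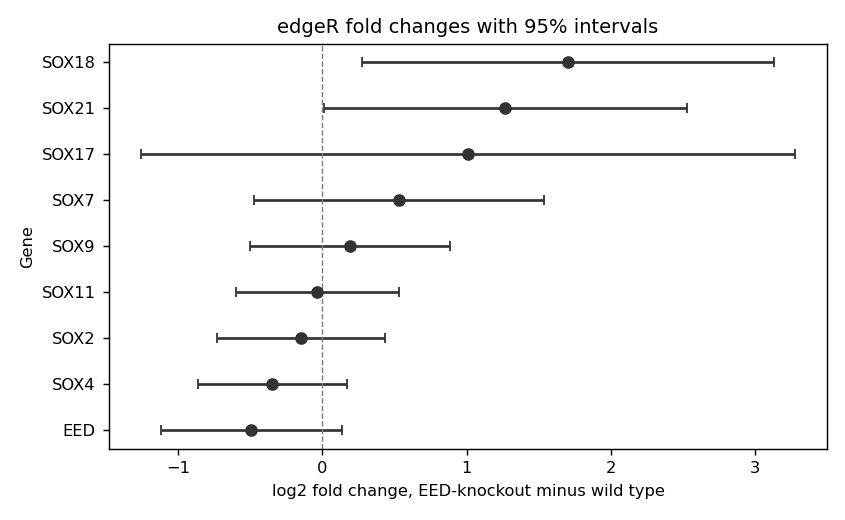
Fitted log2 fold change of EED-knockout over wild type for the 8 SOX genes tested and EED, with bars for the 95% interval of edgeR's fit and a dashed line at 0. The intervals of SOX18 and SOX21 lie above 0 before adjustment, the other 7 cross it, and that of SOX17 is the widest.

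The position of a member on its chromosome was set beside its values, since whole regions can move in a library. Genes within 10 Mb of SOX18 had medians of -0.03 in knockout 1 and 0.20 in knockout 2 on the log2 scale relative to wild type, against 1.66 and 1.34 for SOX18. Those around SOX21 had medians of -0.18 and 0.07, against 0.97 and 1.42 for SOX21. Those around SOX9 had medians of 0.15 and 0.26, against 0.56 and -0.30 for SOX9. SOX18, SOX21, SOX7 and SOX17 lay above their neighbours in both knockout libraries, and SOX4 and SOX2 lay below theirs in both. For SOX18, SOX21 and SOX7 this order follows from their being above wild type in both knockout libraries, as the medians stayed near wild type. The share of all genes that lie so, and the spread of single neighbours, were not computed. A regional part in the SOX values was not tested. SOX2 was at -0.24 and -0.05 in knockout libraries against medians of 0.15 and -0.02. In wild type 1 and 2 it was at 0.13 and -0.13 against 0.08 and -0.08. SOX17 was at -1.27 and 1.27 in wild type 1 and 2 against medians of 0.05 and -0.05, and thus also above its neighbours in wild type 2. These medians rest on 32 to 204 genes each.

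**Figure D4:**
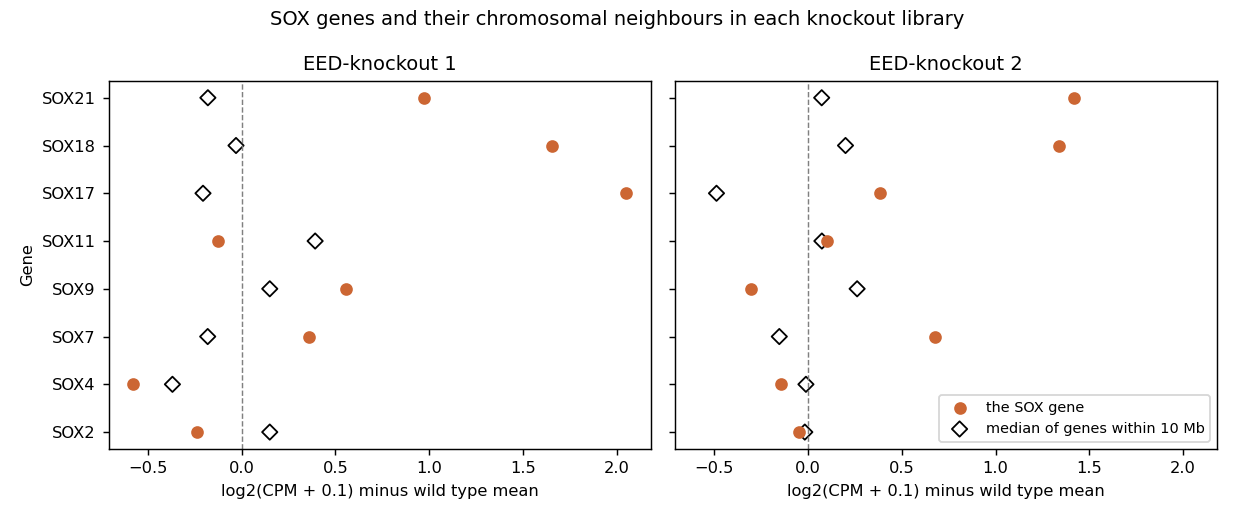
Log2(CPM + 0.1) of each tested SOX gene in each knockout library less its wild type mean (filled points), beside the median of the expressed genes within 10 Mb (open diamonds); the dashed line marks no difference. In knockout 1 both SOX4 and its neighbours lie below 0, while SOX18 and SOX21 lie at 0.97 or above in both libraries with neighbours within 0.20 of 0.

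The remaining SOX genes were read in the same way. Of 9, 6 were tested and none passed edgeR's test. SOX13 had 362 and 469 counts in wild type against 335 and 510 in knockout libraries, SOX12, the third group C gene, had 390 and 454 against 646 and 455, and SOX1, a group B relative of SOX2, had 157 and 109 against 115 and 234. In each of these 3 the genotypes overlapped. Their mean over all libraries was 11.9 TPM for SOX13, 7.35 for SOX12 and 4.03 for SOX1, with SOX2 at 9.27. SOX2, SOX4, SOX9 and SOX11 held 66.36% and 60.15% of all SOX TPM in wild type against 58.74% and 55.75% in knockout libraries. SOX15 had 63 and 79 counts against 65 and 81, and SOX6 had 9 and 21 against 35 and 13, again with overlap. SOX5, the partner of SOX9 and SOX6 in cartilage, was the only one of the 6 without overlap in CPM, with 36 and 30 counts in wild type against 18 and 19 in knockout libraries (log2 fold change -0.89, 95% interval -2.05 to 0.28, edgeR adjusted p = 0.881); in TPM it overlapped, at 1.24 and 0.660 against 0.531 and 0.924. Among the 3 not tested, SOX14 had 0 counts throughout, SOX30 had 6 to 20, and SOX3, another group B gene, had 0 and 3 counts in wild type against 56 in knockout 1 and 7 in knockout 2. Of 9 noncoding genes at SOX loci found in the files, 6 were tested, none passed, and their median was -0.07 on the log2 scale; LINC02055, also listed, lies on chromosome 8 far from SOX7 and SOX17. LINC01152, near SOX9, had 20 and 29 counts in wild type against 16 and 7 in knockout libraries, and CASC15, near SOX4, had 28 and 42 against 26 and 27. In TPM both overlapped, LINC01152 at 0.436 and 1.76 against 1.49 and 0.169, and CASC15 at 0.788 and 1.32 against 0.925 and 0.933.

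Genes known as targets or companions of each SOX group were then counted, in lists chosen with earlier results of these data known. Over all genes tested the median log2 fold change was 0.01, and edgeR called 0 members of any list at an adjusted p of 0.05, while DESeq2 called 2 over the 12 lists, COL2A1 higher and ROBO4 lower, against 0.142% and 0.229% of all genes. At an unadjusted p under 0.05 in edgeR, 2.85% of all genes were higher and 3.05% lower, and the counts below at that p stand beside these shares. Of 17 cartilage genes, targets of SOX9 with SOX5 and SOX6, 9 were tested, with a median of 0.89, 2 higher and 0 lower at an unadjusted p under 0.05. These were the collagen genes COL2A1 and COL9A2. COL2A1 had 3 and 4 counts in wild type against 110 and 47 in knockout libraries, or 0.267 and 0.449 against 1.84 and 1.52 TPM. Its log2 fold change was 4.38 (95% interval 2.79 to 5.97), with an adjusted p of 0.489 in edgeR and 0.000956 in DESeq2. COL2A1 met the filter on low counts only through its knockout libraries. It could thus enter the count and the median of 0.89 only by being higher there. S100B of the neural crest list and CLDN5 of the endothelial list also met the filter only in that way, and the medians of their lists include them. COL9A2 had 30 and 30 counts against 88 and 51 (edgeR adjusted p = 0.831). Both collagen genes and SOX9 were highest in knockout 1, and in knockout 2 both collagen genes lay above wild type while SOX9 was at its lowest. Of 22 neural crest, Schwann cell and melanocyte genes, targets of SOX10, 13 were tested with a median of 0.10 and 0 at an unadjusted p under 0.05. CNP, a myelin enzyme, had 1575 and 1928 counts in wild type against 2255 and 2770 in knockout libraries, and PAX3, a neural crest factor, 174 and 181 against 219 and 314; the summed level of this list was 214 and 238 CPM in wild type against 246 and 286 CPM in knockout libraries. Without CNP, its most abundant gene, the sums were 127 and 132 against 127 and 138 CPM and overlapped.

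Of 15 neural stem cell genes, companions of SOX2, 11 were tested with a median of 0.15, 3 higher and 1 lower at an unadjusted p under 0.05. MSI1, an RNA-binding protein of neural progenitors, had 111 and 119 counts in wild type against 285 and 207 in knockout libraries (log2 fold change 1.04, edgeR adjusted p = 0.799). LIN28B, a fetal RNA-binding protein, had 507 and 278 counts against 172 and 216 (log2 fold change -1.07, edgeR adjusted p = 0.799). The other 2 higher genes, named after their values were seen, were the receptor NOTCH1, with 634 and 693 counts against 1228 and 941, and PROM1, with 18 and 18 against 107 and 24. In TPM PROM1 overlapped, at 0.449 and 1.59 in wild type against 2.93 and 1.05 in knockout libraries. Of 11 SOXC targets 10 were tested with a median of 0.10, 1 higher and 0 lower at that p. This was TNC, the matrix protein tenascin-C, with 6513 and 8450 counts in wild type against 13665 and 12144 in knockout libraries (log2 fold change 0.73, edgeR adjusted p = 0.799), while SEMA3C, a guidance cue, had 581 and 863 against 938 and 875.

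Of 18 endothelial genes, among them targets of the group F factors, 14 were tested with a median of 0.12, 1 higher and 2 lower at an unadjusted p under 0.05. The 2 lower genes were ROBO4, an endothelial guidance receptor, with 327 and 176 counts in wild type against 62 and 75 in knockout libraries (log2 fold change -1.93, adjusted p = 0.664 in edgeR and 0.00925 in DESeq2), and the receptor TIE1, with 1195 and 1329 against 839 and 476 (95% interval of the log2 fold change -1.67 to -0.33, edgeR adjusted p = 0.799). The summed level of the list was 225 and 239 CPM in wild type, with 322 in knockout 1 and 193 in knockout 2. The higher gene was KDR, the VEGF receptor, which had 34 and 16 counts in wild type, with 1782 in knockout 1 and 7 in knockout 2. In the summed level it made up 1.87 and 0.885 CPM in wild type, with 93.8 in knockout 1 and 0.374 in knockout 2. CDH5, the defining junction protein of endothelium, was not tested and had 3, 6, 42 and 1 counts in the same order, VWF 13, 8, 8 and 2, and LYVE1 0 in each; these 4 genes were named after their values were seen. Knockout 1, the library in which SOX17 and SOX18 were highest, also had the most KDR and CDH5. SOX7, also of group F, was highest in knockout 2. Genes outside this list, such as SOX9, COL2A1 and PROM1, were highest in knockout 1 as well. Within the list, by CPM, FLT1, FLT4, TEK, CLDN5, EGFL7 and MMP7 were also highest in knockout 1. The rest of the list was not: ROBO4, ESAM, NOTCH4 and VWF were highest in wild type 1. TIE1, PECAM1 and PROX1 were highest in wild type 2, and EFNB2 and DLL4 in knockout 2. The part of endothelial transcripts in the SOX values was not tested. Of 10 endoderm genes, companions of SOX17, 6 were tested with a median of 0.03 and 0 at an unadjusted p under 0.05. FOXA2, a forkhead factor of endoderm, had 4 and 23 counts in wild type against 43 and 48 in knockout libraries, and GATA4 had 246 and 296 against 349 and 377.

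Of 14 SOX partners and WNT effectors, 12 were tested with a median of -0.10 and 0 at an unadjusted p under 0.05. MEF2C had 191 and 172 counts in wild type against 107 and 134 in knockout libraries, but in TPM it overlapped, at 5.28 and 4.92 against 4.99 and 6.06. CTNNB1, which encodes beta-catenin, had 5556 and 5899 counts against 4620 and 4694. All 6 PRC2 core genes were tested, with a median of -0.11 and 0 at that p; RBBP7, next to EED in its p, had 2517 and 2251 against 2154 and 2064 counts. Of 9 medulloblastoma and granule lineage markers 6 were tested, with a median of 0.36 and 1 higher, the hedgehog effector GLI1, at 11 and 5 against 28 and 23 counts. GLI2 had 517 and 394 counts against 584 and 619. Of 8 blood and immune markers 2 were tested, with a median of 0.30 and 0 at that p. CD14 had 11 and 10 counts in wild type against 19 and 10 in knockout libraries, CD68 400 and 721 against 763 and 570, and CD3E was at 0 throughout.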

How the data were processed

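RNA-seq of total RNA was compared between 2 wild type and 2 EED-knockout libraries of Daoy cells, grouped by the labels. The deposited estimated counts per transcript were made with kallisto 0.43.1 and hg38, according to the submitters' processing notes. TPM values, also deposited, are abundances after division by effective length, per the file headers. The sources used here do not give the annotation release, strandedness or run settings. Counts of a gene were sums of estimated counts, rounded to whole numbers. Genotypes were compared with edgeR 4.0.16 in R 4.3.3 by a two-sided quasi-likelihood F test without covariates. TMM factors and filterByExpr with minimum count 10 and minimum total 15 were used, with Benjamini-Hochberg adjustment over 18349 genes. The fit was also run on simulated data in which genes of equal level were equally variable. That simulation does not cover less even genes such as SOX17, and no result here rests on it. An exact permutation test of 2 against 2 libraries cannot go below p = 0.333 and was not used. Gene positions and exons are from GENCODE 29 (GRCh38), which has the same build as the files. Whole-number estimates (within 0.01 in every library) were found for 8 of 10 SOX genes, the exceptions being SOX7 and SOX11. Promoter sequences are RefSeq's on GRCh38.p14, with 3 of 10 members matched. Neighbouring genes were those within 10 Mb with mean log2 CPM above 1.

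The members and lists were chosen with earlier results of these data known. The rule for named genes took all members and EED, other SOX genes, the 2 tested genes of each list with the smallest edgeR p, and the 3 genes most like the member with the highest CPM. Outside that rule, genes at SOX loci were named for their position. All endothelial list genes but ROBO4 and TIE1 were named after their values were seen. So were NOTCH1, PROM1, S100B, ZIC1, ZIC2, OTX2, NES, ATOH1, NEUROD1, BARHL1 and CD3E. Alternatives were RLE and upper-quartile factors, other filters, the replicate block, correction for GC content and length (loess, span 0.5; 99.9% of tested genes had a value), length-scaled TPM counts, DESeq2 1.42.0, limma 3.58.1 (limma-trend) with pseudocounts 1 and 0.1 on log2 TPM, protein-coding genes only and leaving out each library, in which the genotype left with 1 library was assumed to be as variable as the other.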

Additional observations from a re-analysis of the deposited data

How the results depend on the processing

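No member passed an adjusted p of 0.05 under any of the 17 alternatives (smallest adjusted p 0.442), and SOX2, SOX4, SOX7, SOX18 and SOX21 kept their direction under every alternative that gave a value; with a minimum count of 30 SOX18 was not tested. The log2 fold change of SOX9 ranged from -0.30 to 0.55 with 1 library left out, that of SOX17 from -0.13 to 3.14, and that of SOX11 from -0.29 to 0.27. SOX11 was also at 0.000669 with upper-quartile factors, at 0.0464 with limma-trend on log2(TPM + 1) and at 0.05004 on log2(TPM + 0.1), all positive against -0.03. SOX18 and SOX21 were at 0.59 and 0.53 on log2(TPM + 1), a scale that compresses low levels. The counts of genes called higher and lower, 0 and 0 in edgeR, were 26 and 42 in DESeq2, and with 1 library left out ranged from 0 to 15 and from 0 to 10. Replicate numbers are shared between genotypes, but deviations of same-numbered libraries correlated at -0.141 across genes. The replicate block called 0 and 0 genes, as did a crossed replicate block added after seeing the data; under the replicate block the log2 fold change was 1.70 for SOX18 (edgeR unadjusted p = 0.0501) and 1.28 for SOX21 (unadjusted p = 0.0641). Across the alternatives SOX18 and SOX21 fell on either side of an unadjusted p of 0.05. These are refits of the same libraries and not independent tests. In edgeR, 1082 of 18349 genes had an unadjusted p under 0.05 in the main fit and 768 under the replicate block. In the main fit SOX18 could pass the filter on low counts only by being higher in knockout libraries. Below about 10 counts a library, as for SOX8 and for SOX18 in wild type, depth limits the comparison.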
